A study of Mus musculus with 2 samples.

Results

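The genes described here are 10 members of bone morphogenetic protein (BMP) signalling and of the Id family in the embryonic mouse brain, taken by symbol from the 24411 genes counted in each library. They were the ligands *Bmp4* and *Bmp7*, the receptors *Bmpr1a* and *Bmpr2*, the signal transducers *Smad1* and *Smad5*, and the Id genes *Id1*, *Id2*, *Id3* and *Id4*. All 10 were listed in both libraries. The study cut out the subventricular zone (SVZ), a zone of dividing neural progenitors, and the cortex, in which their neurons come to lie, from stained fresh frozen brain sections at embryonic day 16.5 by laser capture microdissection, and sequenced the RNA of each area in bulk. There were 2 libraries, 1 from the SVZ and 1 from the cortex, with 51435667 and 22050693 reads assigned to genes. Both areas came from embryos with no named treatment or transgene, and the slide was adjacent to one used for the study's light-based barcoding of the same areas. Strain and embryo number are not stated in the labels or methods.

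BMPs are secreted proteins of the TGF-beta superfamily. They bring together type I and type II receptor kinases, which phosphorylate Smad1 and Smad5, and these enter the nucleus with Smad4 and switch on target genes, of which the Id genes are the best known. Id proteins have a helix-loop-helix but no DNA-binding basic region, so they pair with E proteins and keep these from acting with proneural factors, which holds progenitors back from differentiating. In the forebrain, BMPs are known to come mainly from the dorsal midline, the choroid plexus and the meninges.

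The Id genes are shown first by sequence, because the finding is that close relatives lay on opposite sides. An in-frame stretch of 40 codons (120 bases) in the principal coding sequences of GENCODE M21 follows for each gene, read 5′ to 3′. It is the *Id1* stretch best matched, without gaps, by the other Id genes, with the best match to it from each. Capitals mark the 69 positions (57.5%) that are the same in all 4. The stretch lies in the part that encodes the helix-loop-helix.
Id1: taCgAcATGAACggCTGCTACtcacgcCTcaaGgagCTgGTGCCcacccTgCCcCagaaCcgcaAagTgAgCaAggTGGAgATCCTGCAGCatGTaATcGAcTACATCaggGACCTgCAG
Id2: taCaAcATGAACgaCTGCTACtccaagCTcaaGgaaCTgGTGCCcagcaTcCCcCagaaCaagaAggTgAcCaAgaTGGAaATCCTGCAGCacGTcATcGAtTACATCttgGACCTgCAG
Id3: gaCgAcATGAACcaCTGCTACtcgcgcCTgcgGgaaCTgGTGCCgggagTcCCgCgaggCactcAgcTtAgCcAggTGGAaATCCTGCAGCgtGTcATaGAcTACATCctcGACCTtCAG
Id4: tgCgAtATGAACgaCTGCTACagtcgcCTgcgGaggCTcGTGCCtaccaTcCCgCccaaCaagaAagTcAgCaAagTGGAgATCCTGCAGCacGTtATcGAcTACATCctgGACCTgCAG
*Id1* and *Id2* were the most alike pair here, with 81.7% identical bases, although *Id1* was higher in the SVZ and *Id2* in the cortex. Choosing the stretch by likeness to *Id1* favours pairs with *Id1*. The longest run of bases shared by any 2 of the longest Id transcripts was 19, between *Id2* and *Id3*. No stretch of 75 bases, the read length, of *Id1*, *Id2* or *Id3* occurred in a transcript of another gene, so reads of these genes could be told apart.

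*Id1*, *Id3* and *Id4* were higher in the SVZ than in the cortex, and *Id2* was higher in the cortex. Levels are in CPM, the usual per-library scaling of a gene's reads to the same total of gene-assigned reads. Ratios are log2 of SVZ CPM over cortex CPM, with an exact (Clopper-Pearson) 95% interval in parentheses that covers counting error only. With 1 library per area there is no replicate check, no test between the areas was made, and a difference beyond its interval separates these libraries only.

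*Id4* (GRCm38 chromosome 13, 48261228 to 48266026, plus strand) had 6559 reads in the SVZ (128 CPM) and 220 in the cortex (9.98 CPM), a log2 ratio of 3.68 (3.48 to 3.88) or 12.8-fold. It had the widest difference of the members, and 4.76% of all 12738 genes averaging at least 1 CPM had a higher ratio. *Id4* overlaps *A330033J07Rik* on the opposite strand. When strands were counted apart, each of these genes gained 505 SVZ reads and 19 cortex reads, which the unstranded libraries cannot assign to either. With them, the *Id4* log2 ratio was 3.66. Of the stretches of 75 bases in the longest *Id4* transcript, 0.954% also occur in another gene.

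*Id1* (chromosome 2, 152736251 to 152737410, plus strand) had 1242 and 101 reads, or 24.1 CPM in the SVZ and 4.58 CPM in the cortex, a log2 ratio of 2.40 (2.10 to 2.71). *Id3* (chromosome 4, 136143497 to 136145755, plus strand) had 855 and 106 reads, or 16.6 and 4.81 CPM, and a log2 ratio of 1.79 (1.497 to 2.10). The reads of *Id1* relative to *Id3* were 1.45 in the SVZ and 0.953 in the cortex, a difference of 0.61 on the log2 scale (0.20 to 1.02), so *Id1* differed more between the libraries than *Id3* beyond counting error.

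*Id2* (chromosome 12, 25093799 to 25097140, minus strand) had 11548 reads in the SVZ (225 CPM) and 16280 in the cortex (738 CPM). Its log2 ratio was -1.72 (-1.75 to -1.68), or 3.29-fold higher in the cortex, and 8.70% of the tested genes had a lower ratio. Relative to *Id2*, *Id4* was 42.0-fold higher in the SVZ than in the cortex, *Id1* 17.3-fold and *Id3* 11.4-fold. *Id1*, *Id3* and *Id4* together came to 168 CPM in the SVZ and 19.4 CPM in the cortex. With *Id2* added, the order turned to 393 CPM in the SVZ and 758 CPM in the cortex. *Id2* is known in postmitotic cortical neurons as well as in progenitors.

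**Figure D1:**
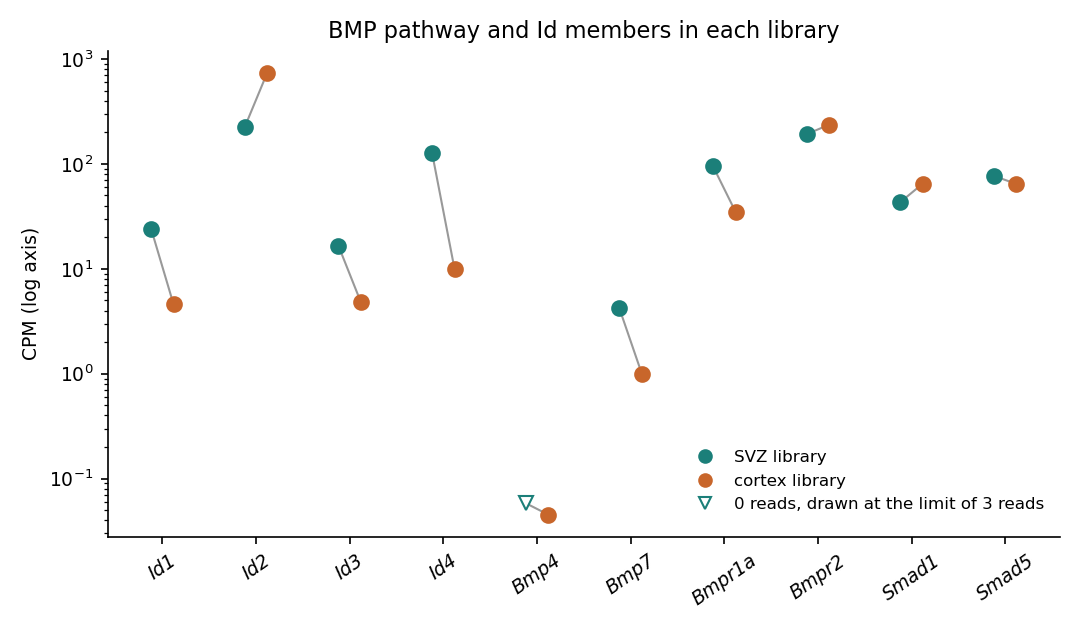
CPM (log axis) of the 10 members in the SVZ and the cortex library, 1 point per library. *Id1*, *Id3*, *Id4*, *Bmp7* and *Bmpr1a* lie higher in the SVZ and *Id2* lies higher in the cortex (738 against 225 CPM), while *Bmpr2*, *Smad1* and *Smad5* are close together. *Bmp4*, with 0 SVZ reads, is drawn at the limit of 3 reads.

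The make-up of the Id family differed between the areas. To compare genes with one another, reads were divided by the length of the longest annotated transcript. Per kilobase, *Id2* held 63.0% of the Id reads in the SVZ (62.4 to 63.7) and 97.3% in the cortex (97.1 to 97.6). *Id4* held 18.3% (17.9 to 18.8) and 0.673% (0.587 to 0.768), *Id1* 11.5% and 1.02%, and *Id3* 7.19% and 0.976%. In the cortex library *Id2* therefore made up nearly all Id signal, and in the SVZ the other 3 held the rest as a visible minority. *Id2* stayed the most abundant member per kilobase in both areas.

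The E proteins, the helix-loop-helix partners that Id proteins bind, were on the SVZ side too. *Tcf12* had 214 CPM in the SVZ and 35.5 CPM in the cortex, a log2 ratio of 2.59 (2.49 to 2.696). *Tcf3* had 57.2 and 16.6 CPM and a log2 ratio of 1.78 (1.62 to 1.94). *Tcf4* had the most reads of the E proteins, 1622 CPM in the SVZ and 1066 CPM in the cortex, with a log2 ratio of 0.61 (0.58 to 0.63). All 3 listed E proteins had the higher CPM in the SVZ, and 2 of them were at least 2-fold higher. Of all tested genes, 6990 of 12738 were higher in the SVZ and 20.0% were so by 2-fold or more.

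Known progenitor and neuron markers were measured beside the Id genes. Of 11 apical progenitor markers, 10 averaged at least 1 CPM, and each of these was higher in the SVZ, 9 of them by 2-fold or more. Their median log2 ratio was 4.09, and the list summed to 7235 CPM in the SVZ and 522 CPM in the cortex. The ratios ran from *Ptprz1* at 0.05 (404 and 390 CPM) to *Pax6* at 8.05. TMM scaling, described at the end, shifted ratios by -0.093, more than the *Ptprz1* ratio. All 9 neuronal markers were higher in the cortex (median -1.77, summed level 3779 and 10839 CPM), the side of *Id2*. Of all 12738 tested genes, 6990 were higher in the SVZ and 5748 in the cortex, 20.0% and 15.6% by 2-fold or more. In bulk RNA, fewer cells of a type and less RNA per cell cannot be told apart, and the part of cell make-up in the Id differences was not tested. *Id1* and *Id3* are also known in blood vessels. Of 10 vessel markers, 7 were higher in the SVZ and 3 in the cortex, with a median log2 ratio of 0.29 and a summed level of 164 and 124 CPM. The log2 ratios of that list ran from *Flt1* at -1.26 to *Cldn5* at 0.87. All 8 microglial markers were higher on the SVZ side, with a summed level of 62.8 and 7.98 CPM. They ran from 3.36 to 15.7 CPM in the SVZ and from 0 to 2.45 CPM in the cortex. Some of them thus reached the minimum of 1 CPM through the SVZ only. The 7 astrocyte and glial precursor markers summed to 68.0 and 10.5 CPM, of which *Aldh1l1* alone was 52.8 CPM in the SVZ and 0 in the cortex. Of the 5 tested, 3 were higher in the SVZ and 2, *Olig1* (-0.79) and *Pdgfra* (-0.13), in the cortex. The 7 erythroid markers, 4 of which had no read at all, summed to 20.4 and 10.9 CPM. The part of these cells was not tested.

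The ligands were scarce in both areas. *Bmp7* (chromosome 2, 172868012 to 172940321, minus strand), a BMP of the dorsal midline and meninges, had 216 reads in the SVZ and 22 in the cortex, or 4.199 and 0.998 CPM. The resulting log2 ratio was 2.07 (1.44 to 2.78), the widest interval among the members with a ratio. *Bmp4* (chromosome 14, 46383520 to 46390669, minus strand), the ligand of the cortical hem and choroid plexus, had 0 SVZ reads and 1 cortex read. Since 0 reads are compatible with a true count of up to 3, or 0.0583 CPM here, *Bmp4* was not detectable at this depth and has no ratio. Of the 11 other ligands in the list, 7 had no read in either library and only *Bmp3* averaged at least 1 CPM. *Bmp3*, an atypical BMP that opposes the others, had 11 and 65 reads, giving a log2 ratio of -3.78 (-4.86 to -2.85), on the cortex side. *Bmp6* and *Bmp5*, below that minimum, had 47 and 20 SVZ reads and no cortex read. Against the floor of 3 cortex reads they were higher in the SVZ by at least 6.72-fold (log2 2.75) and 2.86-fold (log2 1.52), with lower limits of 2.39 and 1.08 when counting error in the SVZ reads is allowed for. *Gdf5* had 10 and 19 reads and lay on the cortex side at -2.15 (-3.42 to -0.97).

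Markers of ligand-producing tissues were measured beside the ligands. *Ttr*, the main choroid plexus transcript, had 12363 SVZ reads (240 CPM) and 16 cortex reads (0.726 CPM), and the choroid plexus and hem list summed to 255 and 92.1 CPM. *Rspo3* made up nearly all of the cortex sum (437 SVZ reads and 2014 cortex reads). In that list the hem genes *Wnt3a* (0 and 0 reads) and *Lmx1a* (1 and 0) were at or near 0. *Folr1* (141 and 0 reads), *Clic6* (88 and 0), *Kcne2* (58 and 0) and *Otx2* (40 and 0) had reads in the SVZ library only. Of these, *Folr1* alone averaged at least 1 CPM. The meningeal list summed to 5.13 CPM in the SVZ and 9.52 CPM in the cortex, and its markers *Aldh1a2* (0 and 0 reads) and *Col1a1* (0 and 2) were at or near 0. Of its 4 markers averaging at least 1 CPM, 3 were higher in the cortex and 1 in the SVZ (median log2 ratio -1.30). They ran from *Col3a1* at -3.22 (17 and 68 reads) to *Col1a2* at 0.36 (96 and 32). Of these 4, 2 were 2-fold or more higher in the cortex, beside 15.6% of all tested genes. The part of choroid plexus RNA in the *Bmp7* difference was not tested.

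The type I member lay on the SVZ side and the type II member slightly on the cortex side. *Bmpr1a* (chromosome 14, 34410734 to 34503341, minus strand), the main type I BMP receptor of neural progenitors, had 4884 reads in the SVZ (95.0 CPM) and 772 in the cortex (35.01 CPM), a log2 ratio of 1.44 (1.33 to 1.55). Of its stretches of 75 bases, 3.67% also occur in another gene. *Bmpr2* (chromosome 1, 59763400 to 59879014, plus strand), the type II receptor, had 9899 and 5208 reads, or 192 and 236 CPM. At a log2 ratio of -0.30 (-0.34 to -0.25) it lay on the cortex side beyond counting error but was only 1.23-fold. The reads of *Bmpr1a* relative to *Bmpr2* were 0.493 in the SVZ and 0.148 in the cortex, 3.33-fold apart.

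Among the type I receptors, the leading gene was not the same in each area. *Acvr1*, which also serves BMPs, had 24.5 CPM in the SVZ and 78.9 CPM in the cortex, a log2 ratio of -1.69 (-1.79 to -1.58). *Bmpr1b* had 20.6 and 36.5 CPM and a log2 ratio of -0.82 (-0.96 to -0.69). Per kilobase, *Bmpr1a* held 57.8% (56.6 to 59.0) of the type I receptor reads in the SVZ and 16.0% (14.9 to 17.1) in the cortex, where *Acvr1* held 65.1% (63.6 to 66.7). In contrast, *Bmpr2* led the type II receptors in both areas, with 56.6% and 47.4%. That lead is uncertain in the cortex. There *Acvr2a* held 45.1% and *Bmpr2* 43.3% when strands were counted apart, with *Acvr2a* and its overlapping neighbour *Orc4* gaining equal reads, and 47.4% and 40.4% with lengths from the union of annotated exons. *Acvr2a* and *Acvr2b* had log2 ratios of -0.97 and -0.45. Thus *Bmpr1a* was the only one of the 6 BMP receptors averaging at least 1 CPM that was higher in the SVZ. The endothelial type I receptor *Acvrl1* fell under that minimum (59 and 10 reads).

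**Figure D2:**
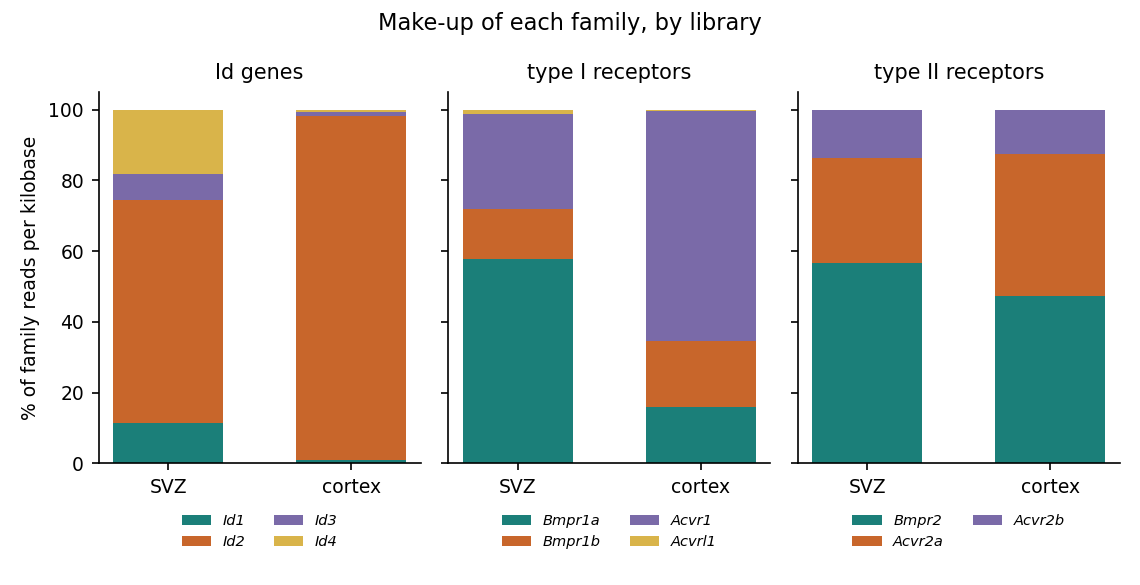
Bars give the percentage of a family's reads per kilobase held by each gene in the SVZ and the cortex library, for the Id genes, the type I receptors and the type II receptors. *Id2* takes 63.0% of the Id bar in the SVZ and 97.3% in the cortex, and the largest type I segment is *Bmpr1a* in the SVZ (57.8%) and *Acvr1* in the cortex (65.1%).

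Both transducers lay within 2-fold. *Smad1* (chromosome 8, 79338395 to 79399518, minus strand) had 2224 reads in the SVZ (43.2 CPM) and 1431 in the cortex (64.9 CPM), a log2 ratio of -0.59 (-0.68 to -0.49). *Smad5* (chromosome 13, 56703010 to 56742377, plus strand) had 3947 and 1420 reads, or 76.7 and 64.4 CPM, and a log2 ratio of 0.25 (0.17 to 0.34). The pair leaned to opposite sides, by 1.501-fold and 1.19-fold. Their sum was 120 CPM in the SVZ and 129 CPM in the cortex. Per kilobase the levels of *Smad1* and *Smad5* overlapped within counting error in the SVZ (11.5 and 11.7 CPM per kilobase), whereas *Smad1* was higher in the cortex (17.2 and 9.78). With union exon lengths *Smad5* held the larger share, 59.96%, of the pair in the SVZ and *Smad1* 54.4% in the cortex. *Smad9*, the remaining BMP-specific Smad, had no read in either library. *Smad4*, the partner shared with TGF-beta signalling, had 88.0 and 92.2 CPM, and its interval (-0.14 to 0.01) only just included equal CPM. TMM scaling shifted ratios by -0.093, which is more than that upper limit.

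Per kilobase, the members ran in the SVZ from *Id2* (114 CPM per kilobase) through *Id4* (33.1), *Id1* (20.8), *Bmpr1a* (15.9), *Bmpr2* (14.9), *Id3* (13.0), *Smad5* and *Smad1* to *Bmp7* (1.14) and *Bmp4* (0). In that order only *Smad5* and *Smad1* had overlapping counting intervals. In the cortex the order was *Id2* (375), *Bmpr2* (18.3), *Smad1* (17.2), *Smad5* (9.78), *Bmpr1a* (5.88), *Id1* (3.95), *Id3* (3.76), *Id4* (2.59), *Bmp7* (0.272) and *Bmp4* (0.0220). Here *Bmpr2* and *Smad1*, and *Id1* and *Id3*, were not apart beyond counting error. The order depends on the lengths. With union exon lengths *Smad5* (10.3) stood above *Id3* (9.28) in the SVZ, where *Bmpr2* and *Smad5* then overlapped and *Smad5* and *Smad1* (6.90) did not. In the cortex *Bmpr2* (13.1) and *Smad1* (10.4) then no longer overlapped, and *Id3* and *Id4* did. With either length *Id4* stood second in the SVZ and eighth in the cortex.

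By a fixed rule of size, 5 of the 9 members averaging at least 1 CPM were 2-fold or more higher in the SVZ (*Id1*, *Id3*, *Id4*, *Bmp7* and *Bmpr1a*), where 20.0% of the 12738 tested genes passed the same rule. Only *Id2* was 2-fold or more higher in the cortex, where 15.6% of tested genes passed. *Bmpr2*, *Smad1* and *Smad5* lay within 2-fold, and *Bmp4* did not reach the minimum. The interval excluded equal CPM for 9 of 9 members, but also for 86.8% of all tested genes, so that this count says little about the members. Their median log2 ratio was 1.44, beside 0.11 for all tested genes (quartiles -0.56 and 0.76).

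**Figure D3:**
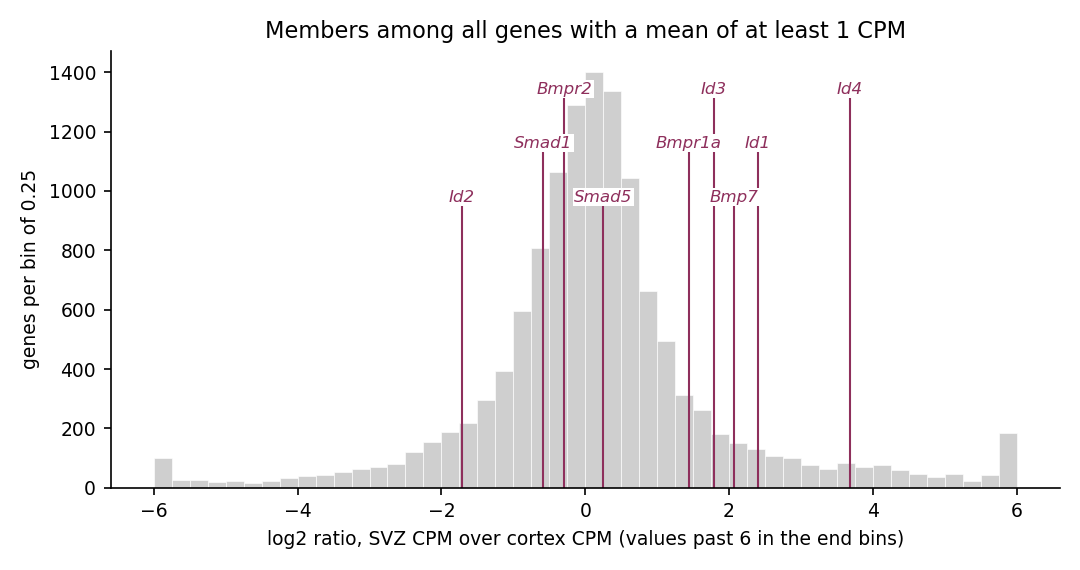
Histogram of the log2 of SVZ over cortex CPM over 12738 genes averaging at least 1 CPM (genes per bin of 0.25), with lines at the 9 members that reached this minimum. *Id2* lies in the cortex tail at -1.72, *Smad1*, *Bmpr2* and *Smad5* lie in the centre, and *Bmpr1a*, *Id3*, *Bmp7*, *Id1* and *Id4* lie on the SVZ side between 1.44 and 3.68.

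The rest of the pathway was described from lists of 52 further genes. Of these, 31 averaged at least 1 CPM, 9 of which were 2-fold or more higher in the SVZ and 5 in the cortex, beside 20.0% and 15.6% of all tested genes. The cortex count is near that background. Their median log2 ratio was 0.12, close to that of all tested genes.

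The secreted antagonists and modulators bind BMPs or act on them outside the cell or at its surface. Of the 11 that averaged at least 1 CPM, 6 were 2-fold or more higher in the SVZ and none in the cortex. The shares of all tested genes were 20.0% and 15.6%. These 6 are among the 9 SVZ-side genes counted above. The minimum is on the mean of both libraries. *Sostdc1* (5.07 and 0.816 CPM), *Nbl1* (2.92 and 0.816) and *Chrdl1* (2.92 and 0) reached it through the SVZ only. Of the 6, *Bmper* and *Fstl1* had means of 34.7 and 163 CPM and the others less than 10 CPM. *Bmper*, which binds BMPs through its chordin-like repeats, had 3503 SVZ reads (68.1 CPM) and 27 cortex reads (1.22 CPM), a log2 ratio of 5.80 (5.25 to 6.40), the highest of any pathway gene with reads in both libraries. *Fstl1*, a follistatin-like secreted protein, had 276 and 50.0 CPM and a log2 ratio of 2.46 (2.37 to 2.55). *Sostdc1* had 261 and 18 reads (2.64, 1.95 to 3.41) and *Nbl1* 150 and 18 reads (1.84, 1.13 to 2.63). *Chrdl1* had 150 SVZ reads and none in the cortex, a difference of at least 21.4-fold (log2 4.42) against the floor of 3 reads, or of log2 4.11 at the lower limit that allows for counting error in the SVZ reads. *Nog*, the classical antagonist noggin, had 350 and 74 reads, giving a log2 ratio of 1.02 (0.65 to 1.40), at the edge of the rule. The remaining 5 tested genes of that list ran from *Fst* at -0.86 to *Chrd* at 0.96. *Sostdc1* is also known from choroid plexus, whose marker values are given above, and that part was not tested.

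Of the intracellular inhibitors, all 5 tested genes were higher in the cortex, as were 5748 of the 12738 genes tested, and 2 of the 5 passed 2-fold (background 15.6%). These were *Smad7*, at a log2 ratio of -1.26 (-1.50 to -1.03) and *Smurf1*, a ubiquitin ligase for Smads, at -1.01 (-1.18 to -0.83). *Ski*, *Skil* and *Smurf2* lay within 2-fold. *Smad6*, the inhibitory Smad most specific to BMP signals, lay on the other side, with 71 SVZ reads and 1 cortex read, and did not reach the minimum. On the log2 scale these counts give 4.93 (2.40 to 10.25). Of the co-receptors, *Rgma* had 155 and 456 reads, giving a log2 ratio of -2.78 (-3.05 to -2.51), and *Neo1*, *Rgmb* and *Eng* lay within 2-fold. *Tgfbr3*, below the minimum, had 6 and 32 reads at a log2 ratio of -3.64 (-5.19 to -2.36).

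Other known BMP target genes were mostly too scarce to compare. *Hey1*, which Notch signals also switch on, had 54.9 and 12.7 CPM at a log2 ratio of 2.11 (1.94 to 2.30), on the side of *Id1*, *Id3* and *Id4*. *Dlx5* had a log2 ratio of 0.82 (0.62 to 1.02). *Atoh8*, below the minimum, had 85 SVZ reads and no cortex read, at least 12.1-fold (log2 3.60) higher in the SVZ, with a lower limit of 3.27 for counting error in the SVZ reads. *Msx1* (9 and 2 reads, or 56 and 11 with strands counted apart), *Msx2* (13 and 0) and *Gata2* (1 and 0) were close to the floor.

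**Figure D4:**
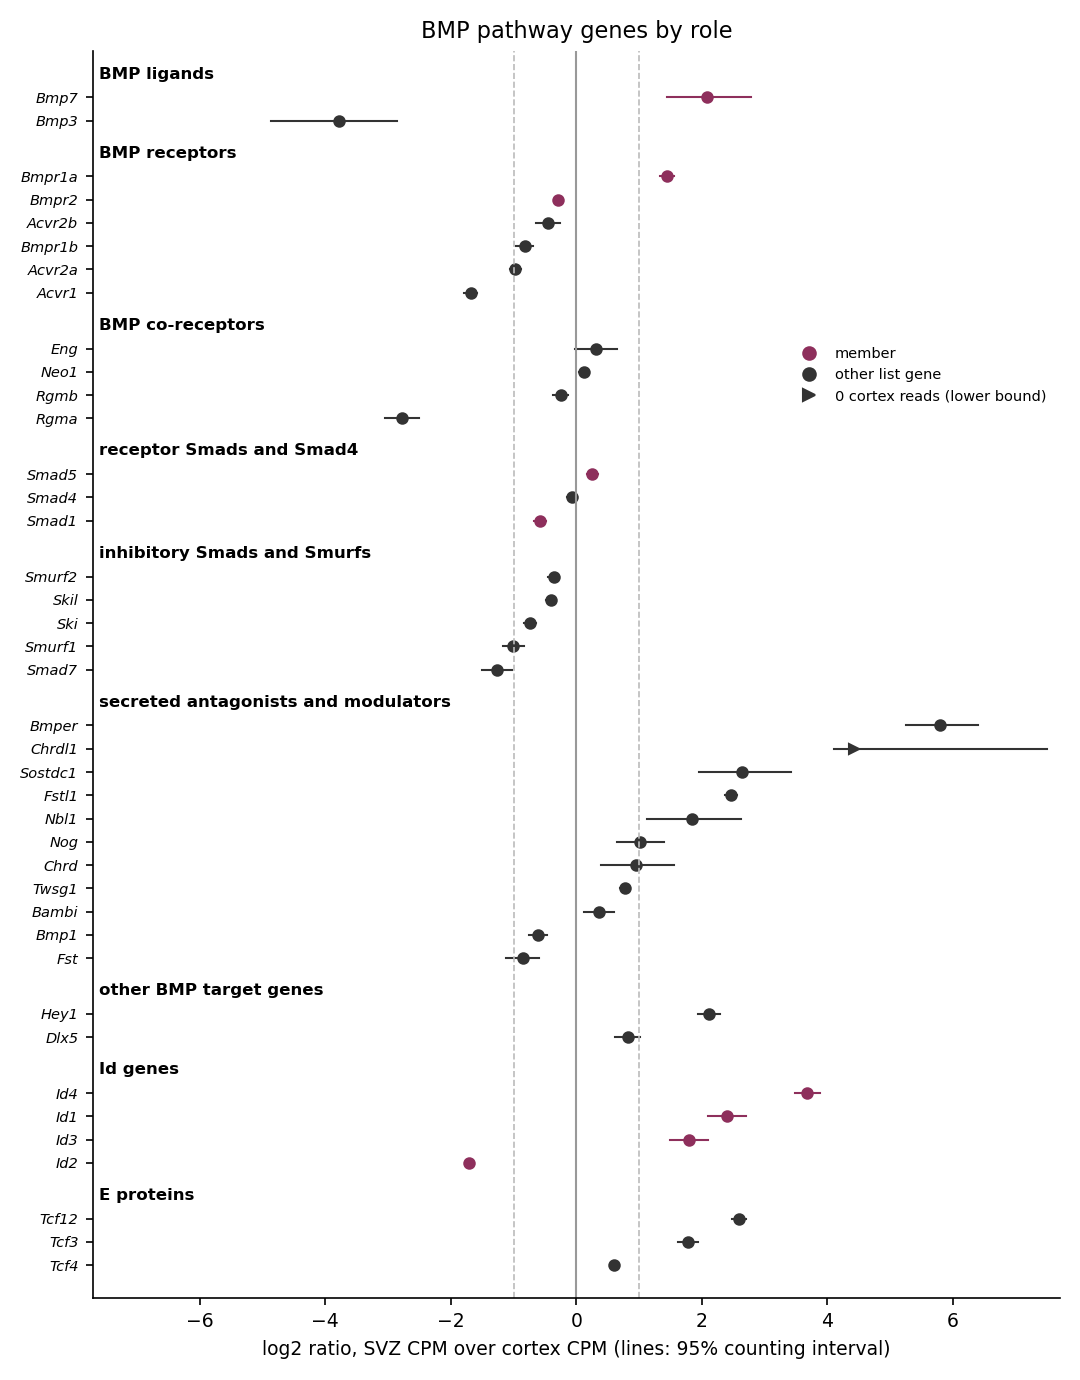
Log2 ratios of SVZ over cortex CPM (x axis) for the pathway genes averaging at least 1 CPM, grouped by role, with exact 95% counting intervals as lines and dashed lines at 2-fold. Members are drawn in purple. *Id1*, *Id3*, *Id4*, *Bmp7* and *Bmpr1a* lie right of the 2-fold line together with *Bmper* (5.80) and 5 other secreted modulators, *Tcf12*, *Tcf3* and *Hey1*, and *Id2*, *Acvr1*, *Rgma*, *Bmp3*, *Smad7* and *Smurf1* lie left of it. The line of *Chrdl1* has no upper end and is cut at the axis.

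The members shared little in position. All are protein coding, and *Id1* and *Bmp7*, *Id4* and *Smad5*, and *Bmpr1a* and *Bmp4* share a chromosome, but the members of each pair are not neighbours. Sequence before the start was held for 8 members in RefSeq (GRCm38.p6), *Id1* and *Bmp7* not among them. It is shown for *Id4* and *Id2*, the Id genes furthest apart in ratio, leaving out any base in an annotated exon of the gene. The *Id4* piece is chr13:48260866-48261115 (plus strand) and the *Id2* piece chr12:25096254-25096342 (minus strand). The *Id4* piece lies before the gene as GENCODE places it (48261228 to 48266026). The *Id2* piece precedes the RefSeq start but lies between exons inside the GENCODE gene (25093799 to 25097140). The pieces are therefore not alike in position. Capitals mark GGCGCC, a GC-rich element known from BMP-responsive promoters, and ATTGG, the reverse complement of CCAAT.
Id4: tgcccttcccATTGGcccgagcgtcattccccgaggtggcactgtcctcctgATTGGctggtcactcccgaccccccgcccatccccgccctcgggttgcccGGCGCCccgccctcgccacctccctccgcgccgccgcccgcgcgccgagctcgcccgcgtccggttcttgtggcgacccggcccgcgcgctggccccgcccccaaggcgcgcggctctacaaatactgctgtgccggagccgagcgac
Id2: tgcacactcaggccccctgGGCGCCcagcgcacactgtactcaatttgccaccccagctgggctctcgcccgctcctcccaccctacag
Matches were counted in the whole 250 bases before each RefSeq start, including bases that GENCODE annotates as exon of the same gene. These were all 250 bases for *Bmpr2* and *Id3*, 161 for *Id2*, 141 for *Bmpr1a*, 90 for *Smad1* and 0 for *Id4* and *Bmp4*. GGCGCC occurred once in the windows of *Id4*, *Id2*, *Bmpr1a* and *Bmpr2*, in none of the *Id3*, *Smad1* and *Bmp4* windows, and in 1 of the 3 overlapping or nearby *Smad5* windows. Of 32851 such windows over all genes, 9.59% held it, counting both strands. These windows were not matched for base composition. The member windows ran from 60% G and C (1 of *Smad5*) to 78.8% (*Bmpr1a*), with *Id4* at 75.6% and *Id2* at 62.8%. The share of 9.59% is therefore no measure of how often such GC-rich windows hold this motif. *Id4* and *Id2*, which lie on opposite sides in these libraries, both held GGCGCC, in *Id2* at a place inside the GENCODE gene. The motif CCAAT occurred 2 times in the *Id4* window and 3 times in the *Id2* window, where all copies lie outside the piece printed above, and 10.1% of all windows held more than 1. GTCT, the short Smad site, was in 82.9% of all windows and had 2 copies in the *Id3* window, 1 in the *Id2* window and none in the *Id4* window. These are letter matches in short windows, chosen after the sequences were seen, and not measured sites.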

How the data were processed

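Sections were stained, areas were cut out by laser, and low-input libraries were sequenced from both ends. The authors removed adapters (cutadapt 4.1) and mapped read 1 alone to mm10 (GRCm38) with STAR 2.7.9a. The values used are deposited raw counts of reads per gene, regardless of strand. No removal of PCR duplicates is stated, so copies may be counted. Reads not assigned to a single gene, 41.0% in the SVZ and 40.9% in the cortex, stayed out of the totals. They included reads mapping to several places (8.20% and 6.89%) and reads ambiguous between genes (1.44% and 1.28%). The authors' merged table of both areas, with their fold changes and log10 values, was not used.

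CPM used the total of gene-assigned reads, so 1 read was worth 0.0194 CPM (SVZ) or 0.0453 CPM (cortex). A 0 was replaced by 3 reads to give a ratio at that floor, whose lower counting limit is smaller. Pairs of counts of 3 or fewer got no ratio. Intervals of ratios and shares are exact binomial, those of the ratio of 2 genes a normal approximation to the log odds ratio. PCR copies are not independent molecules, so intervals cover counting error only. Members and lists (9 of pathway roles, 8 of cell types) were chosen with earlier results of these data known. All members are named, and of the lists the genes 2-fold or more apart, those needed for a role, and markers at the ends of their list or at 0. Positions, lengths and coding sequences are from GENCODE M21, matched by symbol for all 62 pathway genes. The calculation was tested on simulated data. Alternatives were other scalings (edgeR 4.0.16 and DESeq2 1.42.0), totals, count columns, thinning, a pseudocount, minimums, folds and lengths. Python 3.11.15, scipy 1.17.1 and R 4.3.3 were used.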

Additional observations from a re-analysis of the deposited data

How the results depend on the processing

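No paired analysis was possible because SVZ and cortex are 1 library each, which also leaves no replicate to omit. Of 63 member ratios recomputed under an alternative, none changed side and 11 left their counting interval. TMM, DESeq2 and upper-quartile scaling lowered each ratio by one amount, at most -0.099 (log2), as they did the median of all genes. They moved *Id2* to between -1.81 and -1.82, *Bmpr2* to -0.39, *Smad5* to between 0.15 and 0.16 and, for upper-quartile scaling, *Smad1* to -0.68. A pseudocount of 1 CPM moved *Bmp7* to 1.38. At 4-fold, 3 members passed on the SVZ side and 0 on the cortex side. Of the other pathway genes, the SVZ count of 9 became 15 with no minimum and 5 with a minimum mean of 10 CPM, and the cortex count of 5 became 9 with no minimum and 2 at 4-fold. Under each other scaling the counts were 8 and 6, as *Nog* dropped under 2-fold and *Acvr2a* passed it. Over all genes, 2547 and 1992 became 1341 and 1113 with a minimum mean of 10 CPM, which tests fewer genes, and 1300 and 893 at 4-fold. With lengths from the union of exons, the SVZ share of *Id2* was 59.3% and that of *Id4* 21.3%. At this depth, 1 member (*Bmp4*) and 21 of the other 52 pathway genes were under the minimum of 1 CPM.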
